A study of Rattus norvegicus with 6 samples.

Results

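The genes examined here are the 4 eIF2 kinases Eif2ak1, Eif2ak2, Eif2ak3 and Eif2ak4, the transcription factor Atf4, the stress genes Ddit3 and Ppp1r15a that lie downstream of it, and 3 amino acid enzymes, Asns, Psat1 and Phgdh. They were taken by symbol from the authors' table of PHZ against PBS by a rule with no threshold on measured values, although earlier results of these data were known when they were chosen, and make up 10 of the 17172 genes and loci in the files. All 10 passed the filter on low counts, which left 13547 genes for testing. The libraries came from ACI rats aged 6 to 8 weeks, given an intraperitoneal injection of PHZ at 100 mg/kg or the same amount of PBS and killed 36 h later. PHZ is the usual short name of phenylhydrazine, an agent that lyses red cells. Marrow cells from the hind legs were enriched for c-kit with a biotinylated antibody and streptavidin particles, and poly(A) RNA was sequenced in 3 rats per group, 2 labelled female and 1 labelled male in each.

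Eukaryotic initiation factor eIF2 brings the initiator tRNA to the ribosome. When a stress-sensing kinase phosphorylates its alpha subunit, the exchange factor eIF2B is blocked and most translation slows, while the Atf4 mRNA, which carries upstream open reading frames, is translated more; ATF4 protein then switches on genes of amino acid supply and, with prolonged stress, Ddit3. In the red cell lineage the main kinase is the haem-regulated inhibitor encoded by Eif2ak1, which is held inactive by haem and matches globin synthesis to haem supply. Kinase activity, eIF2 phosphorylation and ATF4 protein were not measured here, so the values that follow are transcript levels only.

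The libraries held 13196249 to 19492793 expected counts. Kit, the gene of the selected receptor, was present in all 6 libraries at 33.9 to 71.6 CPM (counts per 1e6 counts, scaled by the trimmed mean of M-values, TMM), and its group means of 56.8 ± 6.32 and 53.5 ± 18.9 CPM (SD, n = 3) did not differ beyond the spread (edgeR adjusted p = 0.841). Of the 5 stem and early progenitor markers tested, Kit among them, Procr (log2 fold change -2.11; edgeR adjusted p = 0.0243) and Thy1 (-1.51; edgeR adjusted p = 0.0471) were lower in PHZ rats. No cell type marker matched in the files was at 0 in all libraries. Of 12 erythroid markers tested, 6 were higher in PHZ rats and none lower (median log2 fold change 1.12), 7 of 9 B lineage markers were lower, with summed levels of 557 to 688 CPM in PBS and 142 to 214 CPM in PHZ rats, and 6 of 8 T and NK cell markers were lower, as were 2 of 7 stromal and endothelial markers, Pecam1 and Kdr. PBS replicate 1 stood apart with 685 CPM of stromal and endothelial markers, against 33.3 to 90.7 CPM in the other libraries, and with 4126 CPM of monocyte and macrophage markers, against 1429 to 1983 CPM. In bulk RNA, fewer cells of a type and less RNA per cell cannot be told apart, and the part that these marker shifts have in the results was not tested. Y-linked transcripts went against the sex label in 3 of the 6 libraries: PBS replicate 1 and PHZ replicate 3, both labelled female, held 3297 and 2136 such counts, and PBS replicate 2, labelled male, held 0.

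Asns, Psat1 and Eif2ak1 rose in PHZ rats and Ddit3 fell, while Atf4 itself did not pass the test (edgeR's quasi-likelihood test, Benjamini-Hochberg adjusted p under 0.05 over all tested genes). Thus 4 of the 10 genes passed, 3 of them higher and 1 lower, beside 13.2% of all tested genes, 8.99% higher and 4.17% lower. The groups' libraries did not overlap for 6 of the 10 genes, against 41.7% of all tested genes. The median log2 fold change was 0.12 for the 10 genes and -0.04 for all tested genes. Each p-value sets the difference between groups against the spread between rats, 3 per group, with that spread estimated partly from all genes. All 4 calls depended on single libraries. None of the 10 genes passed in edgeR without PBS replicate 2, PBS replicate 3 or PHZ replicate 2 (5, 5 and 6 at an unadjusted p under 0.05). Psat1 alone passed without PHZ replicate 3, although the estimates of the 4 genes kept their direction. Calls were lost among all genes as well. In the first 3 of these fits 0 of 13815, 0 of 13864 and 266 of 13919 tested genes passed. An unadjusted p under 0.05 was found for 3325, 3291 and 3577 of them, against 4626 of 13547 with all libraries. Without PHZ replicate 3, 572 of 13955 passed. When the 3 libraries that went against their sex label were left out, 1 PBS and 2 PHZ libraries remained, with 1 residual degree of freedom and the lone PBS library assumed to vary like the others. No tested gene passed in edgeR there (3 of the 10 had an unadjusted p under 0.05), which in so small a fit says little about the calls. The estimates in that fit were 0.72 for Eif2ak1, -1.27 for Ddit3, 1.89 for Asns and 0.92 for Psat1 on the log2 scale.

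**Figure D1:**
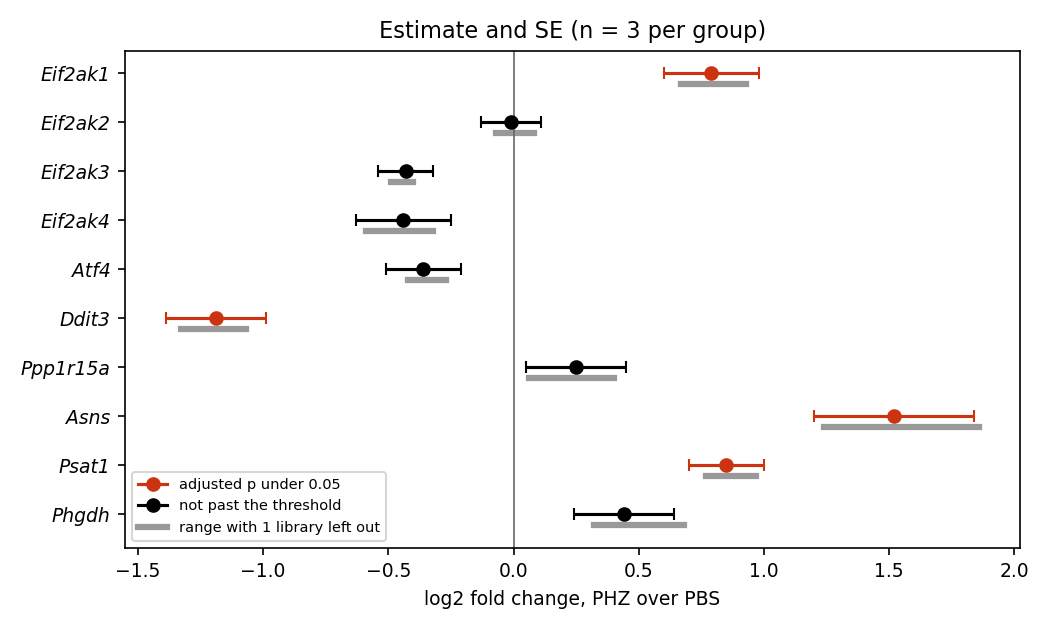
Log2 fold change of PHZ over PBS (x axis) for each of the 10 genes (y axis). Points and bars are the edgeR estimate and its SE with 3 libraries per group, red where the adjusted p was under 0.05, and the grey lines give the range of the estimate when 1 library was left out; Asns lies farthest above 0 at 1.52 and Ddit3 farthest below at -1.19.

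The sequences upstream of the 4 genes that passed are shown because 3 of them moved one way and 1 the other. Each is the stretch of 250 bases before the RefSeq transcription start (build GRCr8), 5′ to 3′ on the strand of the gene, with capitals marking CCAAT boxes on either strand (CCAAT, or ATTGG on the opposite strand) and a GATA motif (AGATAA). The Asns window is chr4:36769416-36769665 on the minus strand, that of Psat1 chr1:222645409-222645658 on the minus strand, that of Eif2ak1 chr12:15858165-15858414 on the minus strand and that of Ddit3 chr7:65001445-65001694 on the plus strand.
Asns: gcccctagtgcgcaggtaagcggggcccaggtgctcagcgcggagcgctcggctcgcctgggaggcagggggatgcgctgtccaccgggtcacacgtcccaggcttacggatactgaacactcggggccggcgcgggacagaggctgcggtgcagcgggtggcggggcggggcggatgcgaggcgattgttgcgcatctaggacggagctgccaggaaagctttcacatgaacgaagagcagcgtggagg
Psat1: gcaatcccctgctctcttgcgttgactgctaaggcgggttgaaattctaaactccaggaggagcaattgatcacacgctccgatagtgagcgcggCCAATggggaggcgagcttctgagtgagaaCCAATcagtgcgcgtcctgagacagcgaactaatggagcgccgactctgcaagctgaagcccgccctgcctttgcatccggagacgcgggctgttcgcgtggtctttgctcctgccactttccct
Eif2ak1: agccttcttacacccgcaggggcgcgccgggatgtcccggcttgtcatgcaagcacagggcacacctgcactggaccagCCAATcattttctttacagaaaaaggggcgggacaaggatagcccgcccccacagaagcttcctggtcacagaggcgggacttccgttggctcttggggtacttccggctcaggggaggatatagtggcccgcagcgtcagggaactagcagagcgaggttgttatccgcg
Ddit3: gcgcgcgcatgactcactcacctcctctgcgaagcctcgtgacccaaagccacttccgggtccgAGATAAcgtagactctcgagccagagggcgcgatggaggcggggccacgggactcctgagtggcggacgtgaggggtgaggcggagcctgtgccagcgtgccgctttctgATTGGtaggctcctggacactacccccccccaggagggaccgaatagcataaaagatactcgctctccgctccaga

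All 10 genes had an entry among the 33469 windows searched on both strands. The core of the element bound by C/EBP and ATF4 dimers, TGATGNAA, was in none of the 10 windows and in 3.4% of all windows. The cyclic AMP response element TGACGTCA, found in 1.59% of all windows, was present once, in Ppp1r15a, where it spans bases -66 to -59 from the start. A CCAAT box stood in the windows of Eif2ak1, Eif2ak3, Ddit3, Psat1 and Phgdh, against 34% of all windows, and Eif2ak3 held 5 of them. Ddit3 carried the GATA motif AGATAA at -186, a match that 10.3% of windows have, and none of the 10 windows had its form TGATAA (7.97% of all). Atf4 had the E-box CACGTG at -82, found in 5.59% of windows. The Asns window held none of the 6 motifs and had a GC content of 68.8%, against a median of 51.2% over all windows. These are letter matches in a fixed window and not evidence of binding.

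Eif2ak1, the haem-sensing kinase, was the only one of the 4 kinases that rose. It stood at 144, 104 and 128 CPM in PBS replicates 1, 2 and 3 and at 173, 247 and 230.3 CPM in PHZ replicates 1, 2 and 3. Every PHZ library lay above every PBS library, with PHZ replicate 1 the lowest of its group. The means were 125 ± 20.3 and 217 ± 38.7 CPM (SD, n = 3), a 1.73-fold rise (log2 fold change 0.79, SE 0.19; edgeR adjusted p = 0.0443). The call sat close to the threshold and was lost in 10 of 19 alternatives, among them upper-quartile scaling (edgeR adjusted p = 0.0522). In the RefSeq annotation Eif2ak1 overlaps Ankrd61, and the strand setting of the authors' counting is not given in the sources used here.

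The other three kinases gave no rise. Eif2ak3 encodes PERK, which spans the endoplasmic reticulum membrane and responds to unfolded proteins in its lumen. It measured 45.7, 46.2 and 44.7 CPM in PBS rats and 32.3, 32.5 and 36.3 CPM in PHZ rats. The groups were tight and did not overlap, with all PHZ libraries low. The log2 difference of -0.43 (SE 0.11) fell just short of the threshold (edgeR adjusted p = 0.0509), and it passed in 4 of 19 alternative analyses, among them DESeq2 (adjusted p = 0.00963) and upper-quartile scaling (adjusted p = 0.0401).

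Eif2ak4 encodes GCN2, which senses uncharged tRNA when amino acids run short. Its levels were 22.3, 33.6 and 30.5 CPM in PBS and 24.0, 19.2 and 20.2 CPM in PHZ rats. PHZ replicate 1 exceeded PBS replicate 1, so the groups overlapped, and the log2 difference of -0.44 (SE 0.19) did not pass (edgeR adjusted p = 0.159). Eif2ak2 encodes PKR, which is activated by double-stranded RNA. It showed 45.8, 41.5 and 37.2 CPM in PBS rats and 42.0, 41.5 and 40.5 CPM in PHZ rats. The PHZ values fell within the PBS range, and the log2 difference was -0.01 (SE 0.12; edgeR adjusted p = 0.976), with a sign that turned in 4 of 19 alternatives.

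Levels of the 4 kinases can be set beside each other per transcript length, in the authors' FPKM values (fragments per kilobase of length, scaled for depth). Eif2ak1 held 72.3%, 64.3% and 70.7% of the summed kinase FPKM in the PBS libraries and 78.5%, 84.5% and 83.0% in the PHZ libraries. It was the most abundant kinase transcript in every library, and each PHZ share exceeded each PBS share. The mean share went from 69.1% ± 4.22 to 82.0% ± 3.12 (SD, n = 3), a difference of 12.9 percentage points; with 3 against 3 libraries an exact permutation test cannot go below p = 0.1, so no test is given. Leaving out the libraries that went against their sex label gave 10.8 percentage points. The shares of the others were lower in all PHZ libraries: 12.6% and 8.66% on average for Eif2ak2, 11.9% and 6.08% for Eif2ak3, and 6.37% and 3.27% for Eif2ak4. The shares sum to the same total, so a larger share of Eif2ak1 makes the rest smaller; the summed level itself was 87.7 ± 10.3 FPKM in PBS and 122 ± 8.41 FPKM in PHZ rats.

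**Figure D2:**
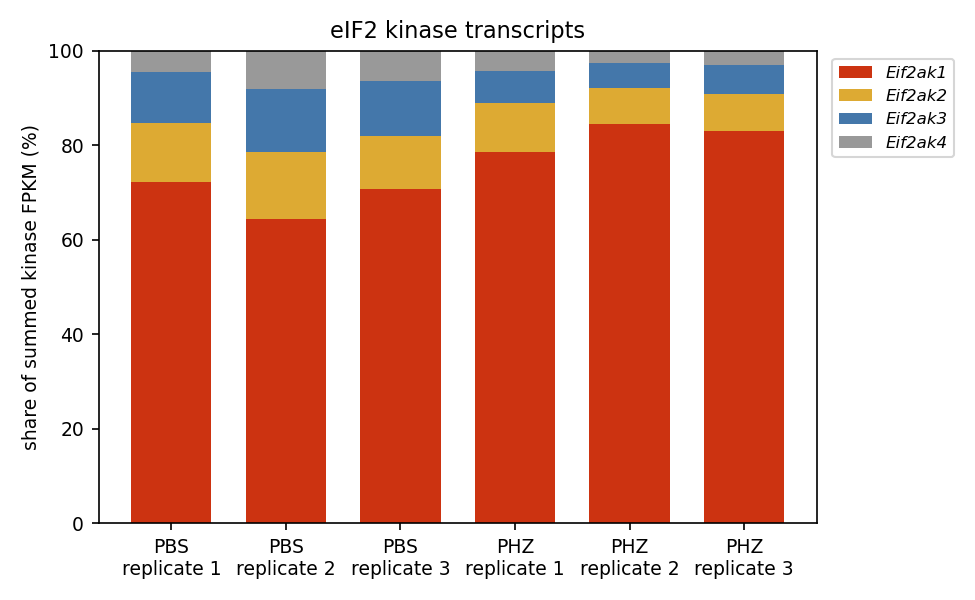
Share of each eIF2 kinase in the summed FPKM of the 4 kinases (y axis, percent) in each of the 6 libraries (x axis, 1 stacked bar per library, no error bars). Eif2ak1 fills 64.3% to 72.3% of the PBS bars and 78.5% to 84.5% of the PHZ bars.

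Most genes for the target of the kinases rose. Of 8 genes for subunits of eIF2 and of its exchange factor eIF2B, 6 were higher in PHZ rats and none lower, beside 8.99% higher and 4.17% lower of all tested genes, with a median log2 fold change of 0.68 against -0.04. Eif2s3 and Eif2b2 did not pass. Eif2b3, the gamma subunit of the exchange factor, had the smallest p and went from 13.4 ± 1.42 to 30.5 ± 3.88 CPM (log2 fold change 1.18, SE 0.16; edgeR adjusted p = 0.0179). Eif2s1, whose product is the alpha subunit that the kinases phosphorylate, went from 57.7 ± 3.77 to 101 ± 13.7 CPM (0.80, SE 0.14), Eif2s2, the beta subunit, rose by 0.90 and Eif2b5, the catalytic subunit of eIF2B, by 0.61 on the log2 scale. Eif2s3, the gamma subunit, ranged from 145 to 263 CPM in PHZ rats and did not pass (edgeR adjusted p = 0.666). Its near-identical Y-linked copy Eif2s3y was at 55.6 to 58.3 CPM in the 3 libraries with Y-linked transcripts and 0 in the rest, so the split of reads between the copies is uncertain. The count of 6 was 3 without PBS replicate 1, 3 without PHZ replicate 1, 4 without PHZ replicate 3, 1 without PHZ replicate 2 and, in edgeR, 0 without PBS replicate 2 or PBS replicate 3, each with 6 at an unadjusted p under 0.05. The count over all tested genes, 1783 with all libraries, was 1744, 1742, 572, 266, 0 and 0 in the same order of fits. Without PBS replicate 2 and PBS replicate 3, 3325 and 3291 of all tested genes had an unadjusted p under 0.05.

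Among 12 genes for regulators of the kinases and for the eIF2 phosphatase, 2 were higher and none lower, beside 8.99% and 4.17% of all tested genes. The difference from these shares was not tested. Tarbp2, an RNA-binding inhibitor of PKR, went from 15.4 ± 1.86 to 30.5 ± 8.48 CPM (log2 fold change 0.99, SE 0.23; edgeR adjusted p = 0.0408). Ppp1cc, a catalytic subunit of protein phosphatase 1, went from 206 ± 12.6 to 315 ± 46.2 CPM (0.61, SE 0.15; edgeR adjusted p = 0.0453). Ppp1r15b, the constitutive partner that directs this phosphatase to eIF2, had an estimate of -0.05 (SE 0.14; edgeR adjusted p = 0.830). Gcn1, the ribosome-bound activator of GCN2, had an estimate of 0.30 (SE 0.17; edgeR adjusted p = 0.248).

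Atf4, the factor whose translation rises when eIF2 is phosphorylated, was the most abundant of the 10 genes in both groups. It gave 868, 998 and 905 CPM in PBS rats and 747, 786 and 628 CPM in PHZ rats. All 3 PHZ libraries lay below the lowest PBS library, PBS replicate 1. The difference of -0.36 (SE 0.15) on the log2 scale did not pass (edgeR adjusted p = 0.153), nor did it in any of 19 alternatives. Of 13 tested partners and related CREB/ATF or C/EBP factors, 1 was higher and none lower, near the 8.99% of all tested genes that were higher: Atf1, a CREB family factor, at 67.5 ± 4.68 and 96.0 ± 10.6 CPM (log2 fold change 0.51, SE 0.13; edgeR adjusted p = 0.0495).

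Ddit3 encodes CHOP, a C/EBP family factor associated with cell death under unresolved stress. It was counted at 114, 166 and 152 CPM in PBS rats and at 74.3, 52.3 and 62.5 CPM in PHZ rats. Every PHZ library was below every PBS library. The means of 144 ± 26.8 and 63.0 ± 11.0 CPM (SD, n = 3) differed 2.29-fold (log2 fold change -1.19, SE 0.20; edgeR adjusted p = 0.0222), and the authors' deposited table flags the gene as down with a log2 ratio of -1.06.

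The counts of Ddit3 are bound to those of Mars, the methionyl-tRNA synthetase gene, whose annotated span overlaps that of Ddit3 by 62 bases in RefSeq; an uncharacterised protein-coding locus there, LOC134479709, overlaps Ddit3 by 3930 bases. In all 6 libraries the expected counts of both added up to a whole number within 0.005, although each was fractional in 5 of them (in PBS replicate 2, 2856.72 and 707.28 counts sum to 3564), so reads were divided between the 2 genes. Mars went the other way, from 45.9 ± 9.0 to 80.1 ± 9.07 CPM (log2 fold change 0.80, SE 0.18; edgeR adjusted p = 0.0350). The sum of both was 171, 208 and 192 CPM in PBS and 152, 142 and 135 CPM in PHZ rats. It was lower in every PHZ library, but the difference of -0.41 (SE 0.13) did not pass (edgeR adjusted p = 0.0797). How many of the divided reads belong to each gene was not tested, and the call for Ddit3 carries that limit. The length the authors used for Ddit3 also varied between 1230 and 1695 bases among libraries, which enters its FPKM.

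Ppp1r15a encodes GADD34, the stress-induced partner that brings protein phosphatase 1 to eIF2 and reverses its phosphorylation. Its levels were 350.2, 406 and 362 CPM in PBS rats and 349.7, 557 and 424 CPM in PHZ rats. PHZ replicate 1 matched the lowest PBS library, PHZ replicate 2 was the highest, and the groups overlapped (log2 fold change 0.25, SE 0.20; edgeR adjusted p = 0.403). Of the 6 tested genes that CHOP is known to activate, Ppp1r15a among them, none passed in edgeR, 1 had an unadjusted p under 0.05 and 1 passed in DESeq2. Over all 13547 tested genes, 13.2% passed in edgeR and 4626 had an unadjusted p under 0.05, and 6 genes are too few to set against these shares. Among the 6, the estimate farthest from 0 was that of Trib3, a pseudokinase that restrains ATF4, at 1.23 (SE 0.36, edgeR adjusted p = 0.0663). Trib3 is named here after its values were seen.

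Asns makes asparagine and is a standard ATF4 target. Its levels were 171, 90.0 and 100.5 CPM in PBS rats and 273, 466 and 294 CPM in PHZ rats. The groups did not overlap, with PBS replicate 1 high in its group and PHZ replicate 2 the highest of all. The rise was the largest in estimate among the 10 genes, from 120.4 ± 43.9 to 344 ± 106 CPM (SD, n = 3), which is 2.86-fold (log2 fold change 1.52, SE 0.32; edgeR adjusted p = 0.0333). Without PBS replicate 1, the library with high stromal and monocyte markers, the estimate was 1.86 (SE 0.28; edgeR adjusted p = 0.0271). The authors' deposited table flags Asns as up with a log2 ratio of 1.45, and flags none of the 10 genes apart from Asns and Ddit3. Its score named Probability was nonetheless 0.9972 for Eif2ak1 and 0.9958 for Atf4, against 0.9951 for the flagged Ddit3. The log2 ratios there were 0.72 for Eif2ak1 and -0.41 for Atf4.

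Serine is built from a glycolytic intermediate in 3 steps, by Phgdh, Psat1 and Psph in turn. Psat1, the aminotransferase of the middle step, was at 17.6, 18.5 and 18.9 CPM in PBS rats and at 34.8, 37.0 and 27.4 CPM in PHZ rats. The PBS libraries lay close together and every PHZ library was above them. The means of 18.3 ± 0.663 and 33.1 ± 4.99 CPM (SD, n = 3) gave a 1.80-fold rise (log2 fold change 0.85, SE 0.15; edgeR adjusted p = 0.0240).

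Phgdh, the dehydrogenase of the first step, showed 39.1, 24.6 and 26.5 CPM in PBS and 42.3, 43.7 and 36.5 CPM in PHZ rats. PBS replicate 1 lay above PHZ replicate 3, so the groups overlapped. The estimate of 0.44 (SE 0.20) did not pass (edgeR adjusted p = 0.177). Without PBS replicate 1 it was 0.68 (SE 0.15) and passed (edgeR adjusted p = 0.0418), the only pass in 19 alternatives. Psph, the phosphatase of the last step, named here after its values were seen, stood at 8.75, 7.74 and 7.60 CPM in PBS and 6.26, 6.99 and 6.59 CPM in PHZ rats. It had an estimate of -0.28 (SE 0.20; edgeR adjusted p = 0.350), so of the 3 enzymes only the middle one passed in this fit.

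**Figure D3:**
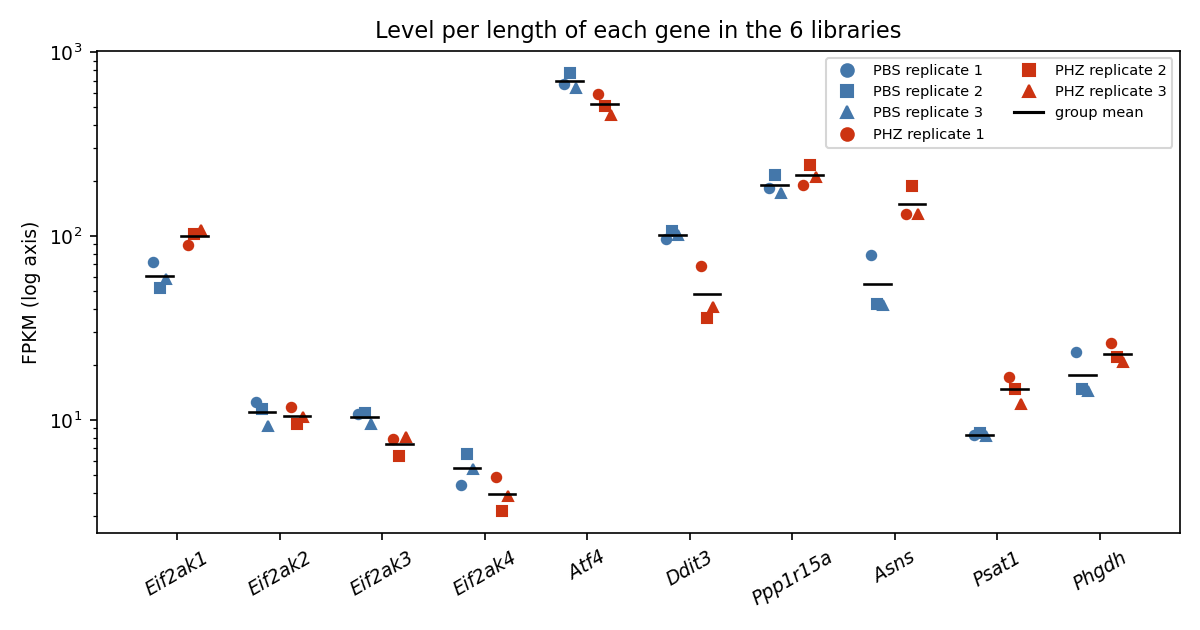
Level of each of the 10 genes (x axis) in FPKM on a log axis (y axis), 1 point per library with PBS in blue, PHZ in red, marker shape for the replicate number and bars for group means. Asns moves from a mean of 54.9 to 149.7 FPKM and Ddit3 from 101 to 48.4 FPKM, so that their order is exchanged.

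On the FPKM scale the order of levels in PBS rats was Atf4 (693 ± 71.8), Ppp1r15a (189.9 ± 21.3), Ddit3 (101 ± 4.92), Eif2ak1 (60.8 ± 10.2), Asns (54.9 ± 21.2), Phgdh (17.5 ± 5.09), Eif2ak2 (11.0 ± 1.67), Eif2ak3 (10.4 ± 0.742), Psat1 (8.32 ± 0.165) and Eif2ak4 (5.47 ± 1.05; SD, n = 3). Eif2ak1 and Asns overlapped, as did Eif2ak2 and Eif2ak3. In PHZ rats the order was Atf4 (519.8 ± 69.9), Ppp1r15a (214 ± 27.8), Asns (149.7 ± 31.6), Eif2ak1 (100.4 ± 9.89), Ddit3 (48.4 ± 17.4), Phgdh (22.9 ± 2.93), Psat1 (14.6 ± 2.39), Eif2ak2 (10.5 ± 1.19), Eif2ak3 (7.41 ± 0.900) and Eif2ak4 (3.96 ± 0.847). There no neighbours in the order overlapped. Among the 13547 tested genes ranked by mean FPKM, Asns was at rank 1401 in PBS and 513 in PHZ rats, Ddit3 at 726 and 1700, Eif2ak1 at 1244 and 794, and Atf4 at 117 and 157.

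Relative to Atf4 within the same library, 3 genes downstream of it differed in direction. The ratio of Asns to Atf4 FPKM was 0.118, 0.0555 and 0.0667 in PBS and 0.222, 0.367 and 0.286 in PHZ libraries. That of Ddit3 to Atf4 was 0.144, 0.138 and 0.159 in PBS and 0.115, 0.0706 and 0.0900 in PHZ libraries. That of Ppp1r15a to Atf4 was 0.274, 0.276 and 0.272 in PBS and 0.318, 0.481 and 0.458 in PHZ libraries. In each of the 3 ratios the groups did not overlap, Asns and Ppp1r15a being higher and Ddit3 lower in PHZ rats. Single-gene levels did not overlap for 41.7% of all tested genes, but the like share for ratios to Atf4 was not computed. Atf4, the shared denominator, was itself lower in every PHZ library, while the levels of Ppp1r15a overlapped between the groups. The Ppp1r15a ratio was nearly constant among the PBS libraries. Ppp1r15a over Ddit3 averaged 1.87 ± 0.149 in PBS and 4.89 ± 2.03 in PHZ rats, and Psat1 over Phgdh 0.498 ± 0.126 and 0.638 ± 0.0407 (SD, n = 3). The ratios have no test of their own, and those with Ddit3 share its limit.

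**Figure D4:**
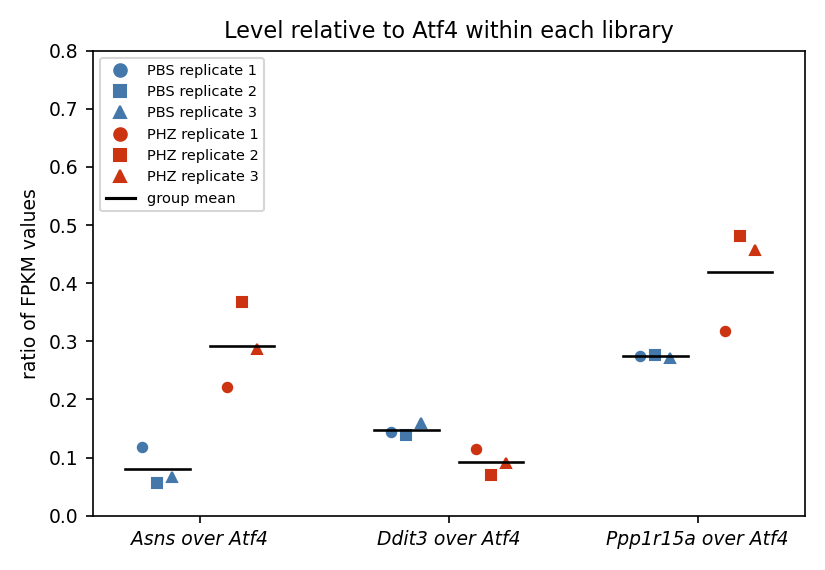
FPKM of Asns, Ddit3 and Ppp1r15a divided by the FPKM of Atf4 in the same library (y axis), 1 point per library, PBS in blue and PHZ in red, with bars for group means. The Asns ratio lies at 0.0555 to 0.118 in PBS and at 0.222 to 0.367 in PHZ libraries.

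Of a list of 42 genes known as ATF4 targets, to which none of the 10 genes belongs, 39 were tested, 13 were higher in PHZ rats and none was lower, beside 8.99% and 4.17% of all tested genes, with a median log2 fold change of 0.29 against -0.04. Lonp1, the mitochondrial protease, had the smallest p and went from 59.8 ± 3.35 to 137 ± 17.4 CPM (log2 fold change 1.19, SE 0.14; edgeR adjusted p = 0.0154). Gars, the glycyl-tRNA synthetase, went from 59.8 ± 5.14 to 163 ± 33.4 CPM (1.45, SE 0.18; edgeR adjusted p = 0.0165). Shmt2, the mitochondrial serine hydroxymethyltransferase, rose by 1.59 and the glutamine transporter Slc1a5 by 1.56 on the log2 scale. By kind of gene, a grouping made after the values were seen, 7 of 9 aminoacyl-tRNA synthetases, 3 of 7 amino acid transporters and 3 of 10 metabolic and mitochondrial enzymes were higher, but 0 of 13 tested stress regulators and signals in edgeR (3 at an unadjusted p under 0.05, 1 in DESeq2). Of all 13547 tested genes, 4626 had an unadjusted p under 0.05. The synthetases include Mars, whose reads are divided with Ddit3. The count of 13 was 15 without PBS replicate 1, 10 without PHZ replicate 1, 6 without PHZ replicate 3, 4 without PHZ replicate 2 and, in edgeR, 0 without PBS replicate 2 or PBS replicate 3 (17 at an unadjusted p under 0.05 in each). The count over all tested genes, 1783 with all libraries, was 1744, 1742, 572, 266, 0 and 0 in the same order of fits. Without PBS replicate 2 and PBS replicate 3, 3325 and 3291 of all tested genes had an unadjusted p under 0.05.

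In the list of serine, glycine and folate-linked one-carbon genes, 8 of 17 tested were higher and none lower, beside 8.99% and 4.17% of all tested genes. The median log2 fold change was 0.70 against -0.04. This list shares genes with the ATF4 target list, among them Shmt2, Mthfd2 and Slc6a9, which passed and count in both. Mthfd1, the cytosolic folate enzyme with 3 activities, went from 66.0 ± 10.8 to 152 ± 5.93 CPM (log2 fold change 1.20, SE 0.15; edgeR adjusted p = 0.0166). Mthfd1l, the mitochondrial formate-producing enzyme, rose by 1.00 on the log2 scale (SE 0.14; edgeR adjusted p = 0.0187), beside Shmt2. The count stayed at 8 without PBS replicate 1 and without PHZ replicate 1, was 4 without PHZ replicate 2, 5 without PHZ replicate 3 and, in edgeR, 0 without PBS replicate 2 or PBS replicate 3 (10 and 12 at an unadjusted p under 0.05). The count over all tested genes, 1783 with all libraries, was 1744, 1742, 266, 572, 0 and 0 in the same order of fits. Without PBS replicate 2 and PBS replicate 3, 3325 and 3291 of all tested genes had an unadjusted p under 0.05. Of 16 tested enzymes of glutamate, aspartate, proline and arginine metabolism, 3 were higher and none lower, a share not far from the 13.2% of all tested genes that passed, among them Asns and the mitochondrial aspartate aminotransferase Got2 (80.8 ± 9.37 and 118 ± 11.1 CPM; log2 fold change 0.55, SE 0.14; edgeR adjusted p = 0.0486).

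The parallel arms of the unfolded protein response, through ATF6 and XBP1, and their chaperones gave no call. Of 27 tested genes, 0 passed in edgeR and 5 had an unadjusted p under 0.05, beside 13.2% and 4626 of all 13547 tested genes. In DESeq2 1 of the 27 was higher and 2 lower, beside 1941 and 1480 of all genes. The median log2 fold change was -0.15, against -0.04 for all tested genes, and 7 of the 27 estimates were above 0. Without PBS replicate 1, 1 of the 27 genes was higher and 1 lower, beside 1024 and 720 of all tested genes. Without PHZ replicate 1, 2 of the 27 were lower, beside 529 of all tested genes. Hspa5, the chaperone BiP and a marker of this response, named after its values were seen, had means of 1161 ± 137 CPM (PBS) and 905 ± 368 CPM (PHZ; SD, n = 3) (log2 fold change -0.36, SE 0.29; edgeR adjusted p = 0.416).

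**Figure D5:**
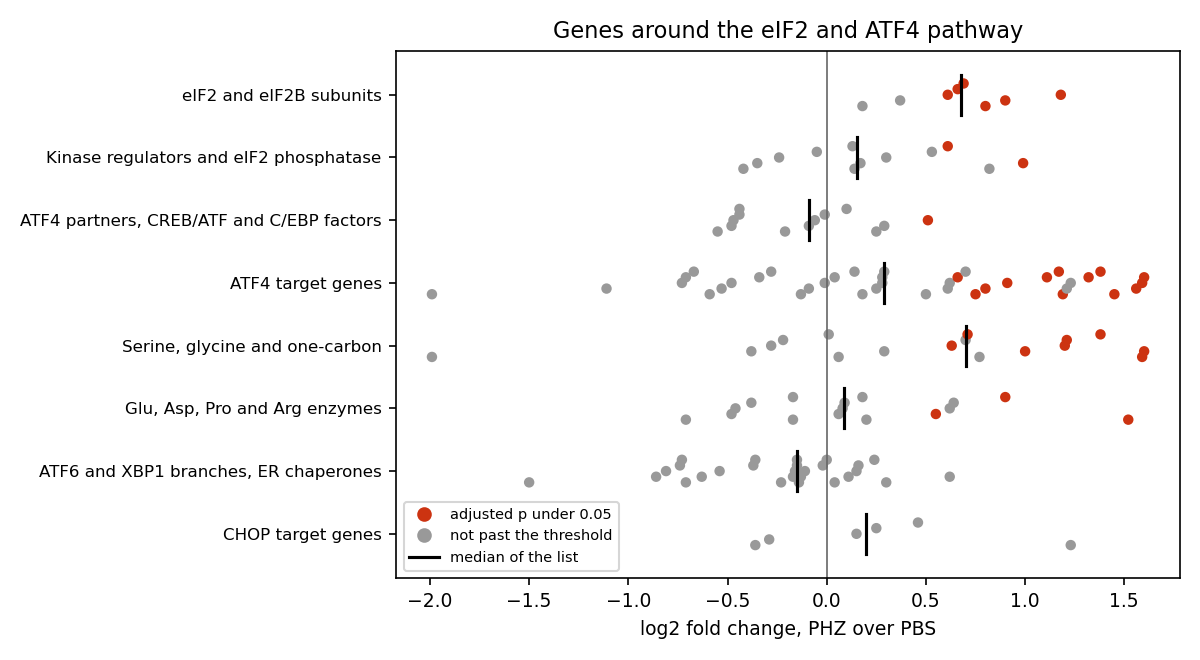
Log2 fold change of PHZ over PBS (x axis) for each tested gene of 8 lists around the eIF2 and ATF4 pathway (y axis), 1 point per gene, red where the edgeR adjusted p was under 0.05, with a black bar at the median of the list. All red points lie above 0, and the list of ATF6 and XBP1 genes has none.

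Among 8703 genes with a named symbol and an average of at least 2 on the log2 CPM scale, those whose levels over the 6 libraries were most like Eif2ak1 were Epb42 (Pearson r = 0.996), a red cell membrane protein, Ppp6r3 (0.996) and Slc16a1 (0.995), a lactate transporter. Those most like Asns were Nrdc (0.999), Pcmt1 (0.998) and Tmem33 (0.998). Those most like Ddit3 were Tfeb (0.999), a lysosomal transcription factor, Traf3ip3 (0.998) and Cbfa2t3 (0.995). With 6 libraries in 2 groups and 8703 genes compared, such values are a description and carry no test.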

How the data were processed

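Poly(A) RNA of c-kit+ marrow cells was sequenced in 6 rats. Tools named in the submitters' processing notes are HISAT, RSEM and GATK, with build rn6 and no roles or settings. Per the file headers, the authors deposited an expected count and an FPKM value per gene and library, and unlisted genes were set to 0. The authors' deposited comparison gives a log2 ratio of group mean FPKM, a score named Probability and a direction flag. Counts were rounded and tested with edgeR 4.0.16 in R 4.3.3 (TMM, filterByExpr, glmQLFit with robust estimation, treatment as the only term, Benjamini-Hochberg adjustment over all tested genes). The SE was obtained by dividing the log2 fold change by the root of the F statistic. CPM values are TMM-scaled. Before that scaling, 3 counts, the limit that a count of 0 allows, equal 0.154 to 0.227 CPM (counting error only). Depths were 13196249 to 19492793. No library was a copy of another: the chi-square per degree of freedom between replicates was 48.3 to 177. Alternatives used DESeq2 1.42.0, limma 3.58.1 on log2(FPKM + 0.1) or log2(FPKM + 1), other scalings, filters, covariates and libraries; the 2 with Y-linked transcripts as a covariate and with Ddit3 and Mars summed were chosen after seeing the data. The script was tested on simulated data.

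The 10 genes and the gene lists were chosen with earlier results of these data known. Named from each list were its called members, or the 4 with the smallest p where there were more than 5 in a direction, and, for likeness, the 3 genes with the highest correlation of log2 CPM (prior count 2); some results that this rule takes are not reported here. Of 249 list entries, 238 matched a gene by the authors' symbols or RefSeq names. Promoter windows are from RefSeq (GRCr8), a different build from the files, and protein sequences were not used here.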

Additional observations from a re-analysis of the deposited data

How the results depend on the processing

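Over all tested genes, 1783 passed in the reported analysis, 68.3% of them higher. The count was 3421 with DESeq2 (1941 higher and 1480 lower, 56.7% higher), 928 with the labelled sex and 435 with Y-linked transcripts as a covariate, 813 with limma on log2(FPKM + 0.1) without a filter, and 0 to 1744 when 1 library was left out. With upper-quartile scaling 1619 passed, 58.7% higher. Without the libraries that went against their sex label, 0 genes passed in edgeR (1480 at an unadjusted p under 0.05). Of the 10 genes, 4 passed as reported, 2 with the labelled sex (Ddit3 and Psat1), 2 with Y-linked transcripts as a covariate (Ddit3 and Asns), 2 with limma without a filter (Asns and Psat1), 0 without the libraries that went against their sex label, and 0 to 5 when 1 library was left out. Where fewer libraries were used, or a covariate or the replicate block was added, fewer residual degrees of freedom remained. For the other settings the cause was not tested. Whether replicate numbers pair the samples is not known. Same-number correlations of deviations were 0.21, 0.06 and 0.00, and not every library correlated best with its own number. With 3 libraries per group such correlations cannot settle it, and the same number carried the same sex label in both groups. With the replicate block, 0 genes and 0 of the 10 passed in edgeR (unadjusted p under 0.05: 4641 and 5). The Eif2ak1 share differed by 17.2 percentage points when CPM replaced FPKM, and by 10.5 to 14.6 when 1 library was left out. The Eif2ak2 estimate turned to 0.01 without a filter, lay between -0.07 and 0.08 when 1 library was left out (above 0 without PBS replicate 1 or PHZ replicate 3) and was 0.17 without the libraries that went against their sex label. Of 191 values for single genes under alternatives, 151 kept direction and side of the threshold, 31 lost the call, 5 gained one and 4 turned in sign.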

Other observations

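PBS replicate 1 was high in single genes of the lists described above, chosen here after their values were seen. Chac1, a glutathione-degrading ATF4 and CHOP target, was at 41.1 CPM there, at 3.67 and 4.00 CPM in the other PBS libraries, and at 11.6, 29.7 and 7.05 CPM in PHZ replicates 1, 2 and 3. Derl3, a component of protein disposal from the endoplasmic reticulum, was at 48.7 CPM in PBS replicate 1, at 8.62 and 8.12 CPM in the other PBS libraries and at 10, 7.93 and 5.13 CPM in PHZ replicates 1, 2 and 3. Xbp1, the transcription factor of the IRE1 arm, was at 304, 149.9 and 156 CPM in PBS replicates 1, 2 and 3 and at 176, 114 and 104 CPM in the PHZ libraries. The summed level of the ATF6 and XBP1 list was 6925, 4696 and 5168 CPM in PBS and 6151, 4615 and 4337 CPM in PHZ libraries, so PHZ replicate 1 was nearer to PBS replicate 1 than the rest were. PBS replicate 1 held more transcripts of stroma, monocytes and macrophages, and the part these have in the values was not tested.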
